A study of Mus musculus with 4 samples.

Results

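Chemokines and their receptors were examined as a gene family in spleen RNA from 4 mouse lymphomas. Members were chosen by symbol: every gene of the deposited count table named Ccl, Cxcl, Cx3cl, Xcl, Ccr, Cxcr, Cx3cr, Xcr or Ackr followed by its number was taken. This gave 62 of 24943 genes, of which 39 encode ligands, 19 encode signalling receptors and 4 encode atypical receptors. The samples, titled GW19, GW95, GW255 and GW328, are called lymphomas 1 to 4 in that order. All 4 carry the same labels: spleen cells of a transgenic mouse whose spleen was enlarged by tumour. The labels name no transgene, promoter, strain or age, do not say whether the samples came from separate animals, and give no healthy or treated spleen for comparison. Per the labels' protocols red cells were lysed and the rest was strained and used for poly(A) RNA, and no sorting of tumour cells is described.

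Chemokines are small secreted proteins that guide leukocytes along gradients. They act through membrane receptors coupled to inhibitory G proteins, while atypical receptors bind chemokines without that coupling and remove or store them. In the spleen, homeostatic chemokines made by stromal cells hold B cells in follicles through Cxcr5 and T cells in the T zone through Ccr7, and inflammatory chemokines made by activated leukocytes recruit effector lymphocytes and myeloid cells.

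Total counts ranged from 7773546 to 9602413 per library. Values are CPM, counts scaled to a common total with TMM library sizes. A count of 0 was taken to allow up to 3 counts, or 0.294 to 0.379 CPM. The exact 95% interval of a 0 count, drawn in the figures, is wider and reaches 0.466 CPM in lymphoma 1. Ratios are given with exact 95% intervals from the 2 counts, which cover counting error only. With 1 group of 4 libraries there is no contrast between conditions, so no p-value is given. B cell markers summed to 67.1, 1359.6, 4409 and 5991 CPM in lymphomas 1 to 4 and T cell markers to 4601, 3574, 381 and 936 CPM. T cell markers thus prevailed in lymphomas 1 and 2 and B cell markers in lymphomas 3 and 4, and which of them the tumour cells carry was not measured. Over the 97 genes with 10 CPM or more in lymphoma 1 and at least 20 times less in lymphomas 3 and 4, the ratio of lymphoma 2 to lymphoma 1 had a median of 0.665, with quartiles of 0.623 and 0.711. Over the 209 genes restricted in the same way to lymphoma 4 against lymphomas 1 and 3, the ratio of lymphoma 2 to lymphoma 4 had a median of 0.115 (quartiles 0.0492 and 0.225). Lymphomas 1 and 2 may therefore not be independent samples, and the main counts are given with and without it. Gene length also moved with the libraries. Over 9708 genes, the rank correlation (Spearman) of the log2 ratio with exonic length ranged over the 6 pairs of libraries from -0.385 for lymphoma 1 over 4 to -0.060 for lymphoma 2 over 3. The part of length in the differences below was not tested.

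The sequences upstream of a transcript start of 6 members are shown because these genes gave the contrasts described below. Ackr2 and Ccr1 were far above the other libraries in lymphoma 4, Ccr4 was high in lymphomas 1 and 2, and Ccl3, Ccl6 and Ccl9 lie in 1 chromosome 11 cluster but were not all highest in the same library. Each window is the 250 bases before the start of a RefSeq transcript on GRCm38.p6, read 5′ to 3′ on the gene's strand. The Ccr4 window lies inside the gene bounds given below, so it precedes that transcript and not the whole gene. Capitals mark matches, on either strand, to AGATAA for factors of the GATA family, TGTGGT for RUNX and AGGAAG for ETS.
Ackr2, chr9:121898105-121898354, plus strand: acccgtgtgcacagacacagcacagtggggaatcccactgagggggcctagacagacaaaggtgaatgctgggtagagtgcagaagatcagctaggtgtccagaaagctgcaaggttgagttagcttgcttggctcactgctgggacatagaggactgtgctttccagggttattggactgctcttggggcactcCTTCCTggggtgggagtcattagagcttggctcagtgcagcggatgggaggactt
Ccr1, chr9:123968693-123968942, minus strand: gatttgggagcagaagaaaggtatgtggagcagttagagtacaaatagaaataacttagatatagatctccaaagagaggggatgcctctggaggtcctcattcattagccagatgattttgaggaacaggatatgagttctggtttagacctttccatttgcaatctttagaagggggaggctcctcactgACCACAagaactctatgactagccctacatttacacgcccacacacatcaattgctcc
Ccr4, chr9:114496545-114496794, minus strand: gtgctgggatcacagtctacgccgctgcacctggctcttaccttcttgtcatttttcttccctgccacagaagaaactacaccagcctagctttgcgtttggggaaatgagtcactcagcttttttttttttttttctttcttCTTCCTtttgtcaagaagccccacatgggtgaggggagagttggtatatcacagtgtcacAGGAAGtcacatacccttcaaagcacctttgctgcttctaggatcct
Ccl3, chr11:83649379-83649628, minus strand: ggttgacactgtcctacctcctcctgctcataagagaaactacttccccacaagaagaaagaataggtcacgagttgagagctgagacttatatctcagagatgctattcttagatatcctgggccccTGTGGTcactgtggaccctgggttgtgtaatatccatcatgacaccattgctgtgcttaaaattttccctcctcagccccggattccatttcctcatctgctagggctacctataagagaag
Ccl6, chr11:83593088-83593337, minus strand: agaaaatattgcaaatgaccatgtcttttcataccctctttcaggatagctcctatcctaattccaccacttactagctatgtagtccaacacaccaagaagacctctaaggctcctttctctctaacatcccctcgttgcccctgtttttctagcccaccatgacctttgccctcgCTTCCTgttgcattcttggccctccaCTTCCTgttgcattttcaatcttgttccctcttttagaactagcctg
Ccl9, chr11:83578637-83578886, minus strand: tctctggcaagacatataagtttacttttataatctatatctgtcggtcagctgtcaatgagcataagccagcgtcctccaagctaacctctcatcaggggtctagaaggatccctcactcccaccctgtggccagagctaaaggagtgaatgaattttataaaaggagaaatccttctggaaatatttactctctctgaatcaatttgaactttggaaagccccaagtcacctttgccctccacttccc

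In these 6 windows, the ETS letters stood 55 bases upstream of the start in Ackr2, 107 and 47 bases upstream in Ccr4, and 73 and 47 bases upstream in Ccl6. The RUNX letters stood 58 bases upstream in Ccr1 and 122 bases upstream in Ccl3, and none of the motifs was found in the Ccl9 window. Of all 32851 RefSeq windows of this length, 29.5% held the ETS letters, 14.0% the RUNX letters and 9.99% the GATA letters. Promoter entries existed for 46 of the 62 members and for 28 of the 35 that passed the expression filter. Those 28 had 32 windows, of which 13 held the ETS, 8 the RUNX and 7 the GATA letters. The matches describe letters, and no binding was measured in these samples.

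A larger share of the receptors than of the ligands was detected, and the summed level of the family was highest in lymphoma 4. Of the 62 members, 35 reached 1 CPM before TMM scaling in at least 1 library, against 54.3% of all genes. These 35 were 17 of 19 receptors, 3 of 4 atypical receptors and 15 of 39 ligands. The number of members at 1 CPM or more was 15, 27, 14 and 34 in lymphomas 1 to 4. The matching shares of all genes in each library were not counted. These 4 numbers are therefore not read as a result about the members. Of the 35, 7 passed through lymphoma 4 alone and so had to be highest there. A further 8 members had some counts but stayed below the filter, and 19 had 0 counts in every library. Summed over all members, the family held 398, 615, 259 and 1381 CPM in lymphomas 1 to 4, of which ligands held 18.2, 77.8, 42.0 and 231 CPM. In bulk spleen RNA, more cells of a type and more RNA per cell cannot be told apart.

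The library with the highest level was lymphoma 4 for 25 of the 35 passed members, or 71.4%. Over all 13543 genes that passed the same filter it was 34.0%. Of the 25 members, 7 passed through lymphoma 4 alone, so the filter set their place. The share of all genes that passed through lymphoma 4 alone was not counted. Lymphoma 1 was highest for 2 members (all genes 29.4%), lymphoma 2 for 3 (6.32%) and lymphoma 3 for 5 (30.4%). Lowest levels fell in lymphoma 1 for 16 members (all genes 35.7%), lymphoma 2 for 1 (5.07%), lymphoma 3 for 12 (21.3%) and lymphoma 4 for 3 (33.2%). Cxcl9, Cxcl10 and Cx3cl1 had 0 counts in 2 libraries each and so had no single lowest one. Among the 19 members with a mean of 5 CPM or more, 13 were highest in lymphoma 4, against 30.5% of all genes at that level. Without lymphoma 2, 28 of 35 members were highest in lymphoma 4 (all genes 37.0%). Without lymphoma 4, 28 members passed and 20 of them were highest in lymphoma 2 (all genes 22.0%). Lymphoma 2 was highest for 5 members without lymphoma 1 (30.6%) and for 6 without lymphoma 3 (12.5%). Markers of several other leukocytes were also highest in lymphoma 4: 5 of 7 NK and cytotoxic genes, 7 of 7 dendritic cell genes, 6 of 8 neutrophil genes and 6 of 10 macrophage and monocyte genes. Their summed levels were 2.78, 107, 33.6 and 172 CPM for NK and cytotoxic genes, 2.27, 28.7, 15.3 and 109 CPM for dendritic cell genes, 22.5, 167, 95.2 and 625 CPM for neutrophil genes and 127, 347, 161 and 389.6 CPM for macrophage and monocyte genes. Several were at or near 0 in lymphoma 1: Prf1, C1qc and Zbtb46 had 0 counts there, Klrd1, Eomes, Gzmb, Ly6g, Siglech and Batf3 had 1 count each, and Cd209a had 0 counts in lymphomas 1 and 3. Among the dendritic cell genes, the integrin chain Itgax was at 1.14, 17.4, 5.005 and 42.6 CPM and Siglech, of plasmacytoid cells, at 0.126, 2.68, 2.36 and 40.7 CPM. The granule protein Ltf of neutrophils was at 0.505, 33.9, 9.42 and 74.7 CPM, and the macrophage lysosomal protein Cd68 at 2.65, 8.03, 19.3 and 29.2 CPM. The part of these cells in the chemokine levels was not tested.

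**Figure D1:**
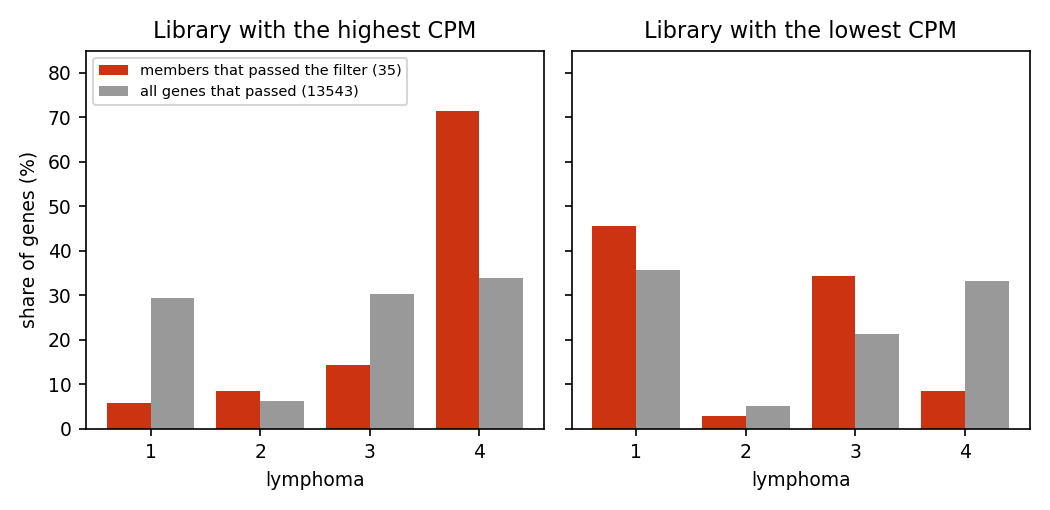
Share of genes whose highest (left) and lowest (right) level fell in each library (y axis, percent) for the 35 passed chemokine and receptor genes and for all 13543 passed genes (paired bars, x axis lymphomas 1 to 4). On the left the member bar for lymphoma 4 stands at 71.4% beside 34.0% for all genes, and the member bars for lymphomas 1 and 3 stand below those of all genes, while on the right the member bar for lymphoma 4 is lower (8.57% against 33.2%). The 71.4% includes 7 members that passed through lymphoma 4 alone.

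The spread between tumours was read beside that of all genes. A large spread, meaning at least 8-fold between the top and bottom library in CPM + 1, was found for 15 of 35 members (42.9%) against 16.3% of all genes. These 15 were 10 receptors, 1 atypical receptor and 4 ligands. The median fold between highest and lowest library was 6.68 over the members and 2.98 over all genes. A stricter rule asked that 1 library lie 8-fold or more from the nearest other library, with 10 CPM or more on the high side. It was met by 3 members against 3.54% of all genes: Ackr2 and Ccr1 lay above the others in lymphoma 4 (0.812% of all genes), and Cxcr5 lay below the others in lymphoma 1 (0.761%). Without lymphoma 2, 15 of 35 members had a large spread (all genes 16.2%). Without lymphoma 2 the stricter rule was met by 12 members, against 8.03% of all genes, with 10 above in lymphoma 4, among them Ccr1, Ackr2, Cxcr3, Cxcr5, Cxcr6, Ccl3, Ccl4, Ccl5 and Xcl1. Without lymphoma 3 it was met by 5 members (all genes 4.12%). Without lymphoma 4, 6 of 28 members had a large spread (all genes 8.77%). A smaller pseudocount of 0.25 CPM gave 24 members with a large spread (all genes 26.4%) and 5 standing apart (4.50%). A 4-fold limit in place of 8-fold gave 23 (35.7%) and 8 (9.72%). The mean level of 12 of the 20 members with 10 CPM or more in a library moved by over 1.5 times without lymphoma 4, among them Ackr2, from 18.6 to 0.549 CPM, and Ccr1, from 35.5 to 3.79 CPM. It did so without lymphoma 3 for Ackr4 and Ccr10, without lymphoma 1 for Ccr4, and without lymphoma 2 for none. The share of all genes whose mean moved so was not counted. These counts are therefore not read as a result about the members.

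Cxcr4 and Cxcr5, the receptors best known for holding B lineage cells in marrow and follicle, were both highest in lymphoma 4 but differed in how evenly the tumours carried them. Cxcr4 (ENSMUSG00000045382.6, chr1:128588199-128592293 on GRCm38), the receptor for Cxcl12, was at 251, 288, 126 and 442 CPM in lymphomas 1 to 4. It was high in every library, with a mean of 277 ± 130.3 CPM (SD, n = 4), and without lymphoma 2 of 273 ± 159 CPM. Lymphoma 4 exceeded lymphoma 3, the lowest, 3.51-fold (3.30 to 3.74). Cxcr5 (ENSMUSG00000047880.15, chr9:44511787-44561877), the receptor for the follicle chemokine Cxcl13, was at 2.15, 49.2, 29.2 and 285 CPM. Lymphoma 4 exceeded lymphoma 2 5.79-fold (5.23 to 6.42) and lymphoma 1 133-fold (82.6 to 228). Cxcr5 was thus low in lymphoma 1 and present in the other 3 libraries. The B cell markers followed the same division, with 8 of 8 lowest in lymphoma 1, and with 3 highest in lymphoma 3 and 5 in lymphoma 4. Cd79a, which carries the signal of surface immunoglobulin, was at 24.0, 248, 1314 and 1151 CPM. The inhibitory receptor Cd22 was at 2.4, 191, 852 and 604 CPM. The ratio of lymphoma 4 to lymphoma 3 ranged over the 8 B cell markers from 0.708 for Cd22 to 12.5 for Ms4a1 (CD20), and for Cxcr5 it was 9.73 (8.63 to 11.0). T follicular helper cells also carry Cxcr5. Their 6 markers summed to 269.9, 217, 6.38 and 174 CPM and had medians of 3.36, 4.06, 0.20 and 4.39 in log2(CPM + 1). The 3 highest in lymphoma 1 included Pdcd1, an inhibitory receptor, at 119, 87.2, 5.59 and 43.3 CPM, and Sh2d1a, a signalling adaptor, at 128, 95.4, 0.196 and 14.7 CPM. The 3 highest in lymphoma 4 were Icos, Il21 and Cd200. The part of either cell type in the Cxcr5 levels was not tested. Exons of Cxcr5 share 110 bases with Bcl9l on the other strand, and the strand setting of the counting is not given in the sources used here.

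Ccr7 and Ccr4, receptors carried by T cells, were both lowest in lymphoma 3, but Ccr7 was also high in lymphoma 4. Ccr7 (ENSMUSG00000037944.8, chr11:99144196-99155077), which guides T cells, B cells and dendritic cells to the T zone, was at 34.6, 50.4, 3.63 and 46.0 CPM, with a mean of 33.7 ± 21.1 CPM (SD, n = 4), and without lymphoma 2 of 28.1 ± 21.9 CPM. The ratio of lymphoma 4 to lymphoma 2 was 0.912 (0.796 to 1.04), an interval that includes 1, and lymphoma 2 exceeded lymphoma 3 13.9-fold (9.92 to 19.98). Ccr4 (ENSMUSG00000047898.7, chr9:114490316-114504916), carried by helper, regulatory and skin-homing T cells, was at 68.6, 45.9, 0.0981 and 5.39 CPM. Lymphoma 3 gave 1 count of Ccr4, and lymphoma 1 exceeded lymphoma 4 12.7-fold (9.49 to 17.4). The ratio of lymphoma 2 to lymphoma 1 for Ccr4 was 0.670 (0.588 to 0.763), beside the median of 0.665 over the 97 genes restricted to lymphoma 1. The T cell markers were all highest in lymphoma 1, and 7 of 8 were lowest in lymphoma 3. Cd3d, a subunit of the T cell receptor complex, was at 653, 480.4, 0.981 and 55.1 CPM, and the transcription factor Tcf7 at 1601, 1241, 23.7 and 157 CPM. The order of the 4 libraries was the same for Ccr4 as for Cd3d, and the part of T cell number was not tested. Without lymphoma 2, Ccr4 lay 8-fold or more above the other libraries in lymphoma 1.

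**Figure D2:**
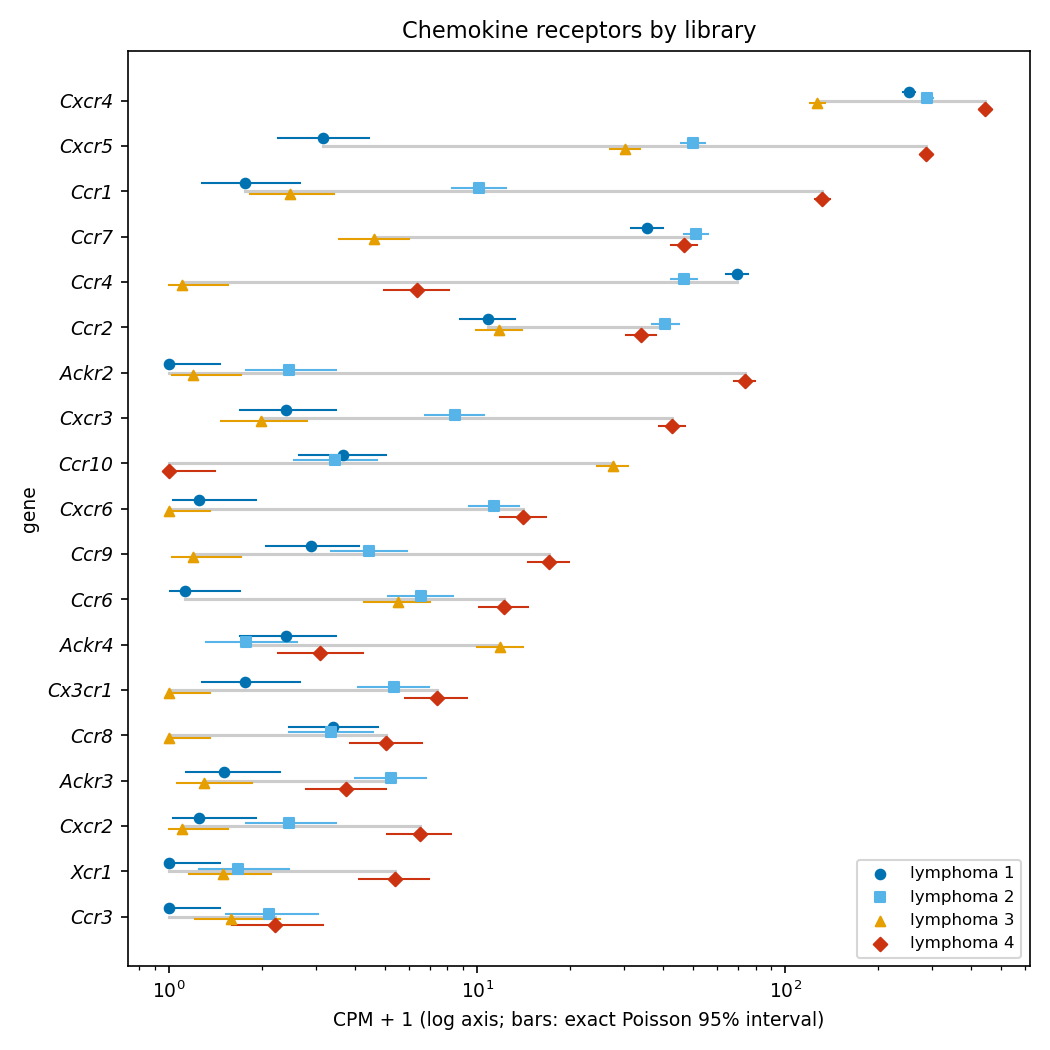
Levels of receptors and atypical receptors that passed the filter (y axis), as CPM + 1 on a log axis, with 1 point for each lymphoma and bars for the exact 95% counting interval. Cxcr4 is the only one above 100 CPM in all 4 libraries, the lymphoma 4 points of Ackr2 and Ccr1 stand far to the right of the other 3 points in their rows, and Ccr4 is highest in lymphoma 1 and Ccr10 in lymphoma 3.

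Ccr1 and Cxcr3, receptors of inflammatory chemokines, were both highest in lymphoma 4 with lymphoma 2 second. Ccr1 (ENSMUSG00000025804.5, chr9:123962124-123968692), a receptor of Ccl3, Ccl5, Ccl6 and Ccl9 on myeloid cells, was at 0.758, 9.14, 1.47 and 131 CPM. Lymphoma 4 exceeded lymphoma 2 14.3-fold (11.4 to 18.1) and lymphoma 1 172-fold (79.0 to 471). The other 3 libraries stayed below 10 CPM. Cxcr3, the receptor for interferon-induced ligands on effector T cells and NK cells, was at 1.39, 7.47, 0.981 and 41.9 CPM. Its level in lymphoma 4 exceeded that in lymphoma 2 5.61-fold (4.31 to 7.38), and lymphomas 1 and 3 were near 1 CPM.

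Ccr2 departed from this order, while Cxcr6 kept it with lymphomas 4 and 2 within counting error of each other. Ccr2, which brings monocytes out of the marrow, was at 9.85, 39.8, 10.8 and 33.0 CPM, highest in lymphoma 2, and lymphoma 4 followed at 0.83 (0.708 to 0.969) of its level. Its spread was less than 8-fold, and all 4 libraries were above 9 CPM. Cxcr6, the Cxcl16 receptor of tissue-resident and memory T cells, was at 0.253, 10.4, 0 and 13.1 CPM. Lymphoma 4 exceeded lymphoma 2 in Cxcr6 by 1.26-fold (0.954 to 1.67), an interval that includes 1. Lymphomas 2 and 4 thus shared Cxcr6, while lymphoma 1 had 2 counts and lymphoma 3 none. Nkg7, a granule protein of cytotoxic cells, was at 1.011, 23.0, 0.981 and 46.6 CPM, and Lyz2, the lysozyme of macrophages and neutrophils, at 105, 254, 96.6 and 259.9 CPM. Like Cxcr6 and Ccr2, both were higher in lymphomas 2 and 4 than in 1 and 3, and their part in these levels was not tested.

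Ccr10, Ccr9 and Ccr6, receptors tied to skin and mucosal homing, each had a different library order. Ccr10, the receptor of Ccl27 and Ccl28 on skin-homing T cells and antibody-secreting cells, was at 2.65, 2.45, 26.6 and 0 CPM. It was high in lymphoma 3 alone, 10.03-fold (6.43 to 16.5) above lymphoma 1 and at least 80.6-fold above lymphoma 4, which had 0 counts against the limit of 3. Ccr9, the gut and thymus receptor for Ccl25, was at 1.89, 3.46, 0.196 and 16.1 CPM and highest in lymphoma 4, 4.64-fold (3.13 to 7.08) over lymphoma 2. Its exons overlap 3 other annotated genes, so its counts are uncertain. Ccr6, the Ccl20 receptor of B cells and type 17 T cells, was at 0.126, 5.58, 4.51 and 11.2 CPM. Lymphoma 1 had 1 count of Ccr6, and lymphomas 2 to 4 were all above 4 CPM. Ccr6, like Cxcr5, was thus lowest in lymphoma 1, where the summed B cell markers were lowest too. In lymphomas 2 and 3 the orders differed: Cxcr5 was at 49.2 and 29.2 CPM, and B cell markers summed to 1359.6 and 4409 CPM. The part of B cells in the Ccr6 level was not tested. Plasma cell markers did not share the Ccr10 order: 4 of 5 were highest in lymphoma 4, and Jchain, which joins polymeric antibodies, was at 122, 472, 88.4 and 619.6 CPM, whereas Sdc1, a surface proteoglycan of plasma cells, was at 165, 118, 9.32 and 11.5 CPM.

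Of the remaining passed receptors none reached 10 CPM. Cx3cr1, found on monocytes and NK cells, was at 0.758, 4.35, 0 and 6.38 CPM, and Ccr8, carried by regulatory T cells, was at 2.4, 2.34, 0 and 4.07 CPM. Both had 0 counts in lymphoma 3. The summed level of 4 regulatory T cell markers was 94.6, 110.2, 22.2 and 234 CPM. Among them Ikzf2 was at 46.7, 48.4, 0.393 and 62.9 CPM and Ctla4 at 1.14, 10.9, 2.36 and 120.0 CPM. Of the 4 genes 2 were lowest in lymphoma 1 and 2 in lymphoma 3, and Foxp3, which defines these cells, was at 13.5, 19.2, 15.1 and 25.1 CPM. Their part in the Ccr8 level was not tested. Cxcr2, the neutrophil receptor, was at 0.253, 1.45, 0.0981 and 5.50 CPM. Its order followed the neutrophil gene S100a9, at 6.44, 40.3, 25.5 and 186 CPM, only in that lymphoma 4 was highest and lymphoma 2 second. Xcr1, which marks cross-presenting dendritic cells, was at 0, 0.669, 0.491 and 4.40 CPM, and Ccr3, the eosinophil receptor, at 0, 1.12, 0.589 and 1.21 CPM. Cxcr1 and Ccr1l1 had 0 counts in every library.

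Among the atypical receptors, Ackr2 had the widest gap between its highest and its next library among the 35 passed members. Ackr2 (ENSMUSG00000044534.8, chr9:121898355-121911074), a scavenger of inflammatory CC chemokines that is known from lymphatic endothelium and innate-like B cells, was at 0, 1.45, 0.196 and 72.8 CPM. Lymphoma 4 held 662 counts, 50.2-fold (29.2 to 94.8) above lymphoma 2 and at least 192-fold above lymphoma 1, which had none. Of the 4 endothelial markers that passed the filter 3 were highest in lymphoma 4 (34.0% of all passed genes). Pecam1, an adhesion protein that platelets and leukocytes also carry, was at 46.7, 66.8, 124 and 146 CPM. Cdh5, which defines endothelial junctions, was at 0, 0.669, 0.785 and 4.40 CPM. The part of endothelial or B cells in Ackr2 was not tested. Ackr4, which removes Ccl19, Ccl21 and Ccl25, was at 1.39, 0.781, 10.9 and 2.09 CPM and highest in lymphoma 3, 5.21-fold (3.19 to 8.99) over lymphoma 4. The authors' deposited FPKM table lists Ackr4 at 0, 0, 2.03 and 0.138 FPKM. The 2 tables thus share the highest library but not the low values, and exons of Ackr4 overlap those of Acad11 by 479 bases. Ackr3, a scavenger of Cxcl12, was at 0.505, 4.24, 0.294 and 2.75 CPM, highest in lymphoma 2, although lymphoma 4 lay within counting error at 0.649 (0.375 to 1.10) of it. Ackr1, the receptor of red cells and venules, gave 2 counts in all, both in lymphoma 4.

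The ligands found in quantity were those made by activated T cells, NK cells and macrophages, with Ccl5 far ahead. Ccl5 (ENSMUSG00000035042.2, chr11:83525778-83530518), which recruits cells through Ccr1 and Ccr3, was at 1.26, 32.6, 5.40 and 152 CPM. Ccl5 in lymphoma 4 exceeded lymphoma 2 4.67-fold (4.11 to 5.32), lymphoma 3 28.2-fold (21.5 to 37.6) and lymphoma 1 120.4-fold (65.3 to 252). The mean was 47.8 ± 70.9 CPM (SD, n = 4), and without lymphoma 2 52.9 ± 85.9 CPM, and the SD exceeded the mean in both cases. The mean rested on lymphoma 4: without it, it was 13.1 CPM. Ccl4 and Ccl3, macrophage inflammatory proteins, were at 0.126, 5.80, 0.393 and 16.9 CPM and 0, 7.58, 0.393 and 12.3 CPM. Xcl1, which draws Xcr1-bearing dendritic cells and is made by NK cells and CD8 T cells, was at 0, 2.68, 0.0981 and 15.4 CPM. Levels in lymphoma 4 exceeded lymphoma 2 2.92-fold (2.12 to 4.08) for Ccl4, 1.62-fold (1.19 to 2.23) for Ccl3 and 5.75-fold (3.71 to 9.28) for Xcl1. Lymphoma 1 had 0 or 1 counts of Ccl3, Ccl4 and Xcl1, and Ccl3 was at least 32.5-fold and Xcl1 at least 40.6-fold above it in lymphoma 4. All 4 of these ligands were highest in lymphoma 4 with lymphoma 2 second. The order of lymphomas 1 and 3, at 0 to 4 counts, was not resolved for Ccl3, Ccl4 and Xcl1. The median of NK and cytotoxic genes in log2(CPM + 1) was 0.17, 4.01, 1.25 and 4.35, with lymphomas 4 and 2 again first and second. The same held for the medians of neutrophil genes (1.58, 4.31, 3.07 and 5.72), dendritic cell genes (0.17, 1.36, 0.58 and 2.90) and chemokine inducers (3.41, 5.70, 3.77 and 6.51). T follicular helper, regulatory T cell, plasma cell and chemokine signalling medians had that order too, so it was common to many lists. Macrophage and monocyte medians were 1.39, 2.34, 2.08 and 2.21, with lymphoma 2 first. The remaining lists, among them B cell and T cell genes, did not have that order either. The part of these genes or cells in the ligand levels was not tested. Exons of Xcl1 share 98 bases with Gm20743.

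**Figure D3:**
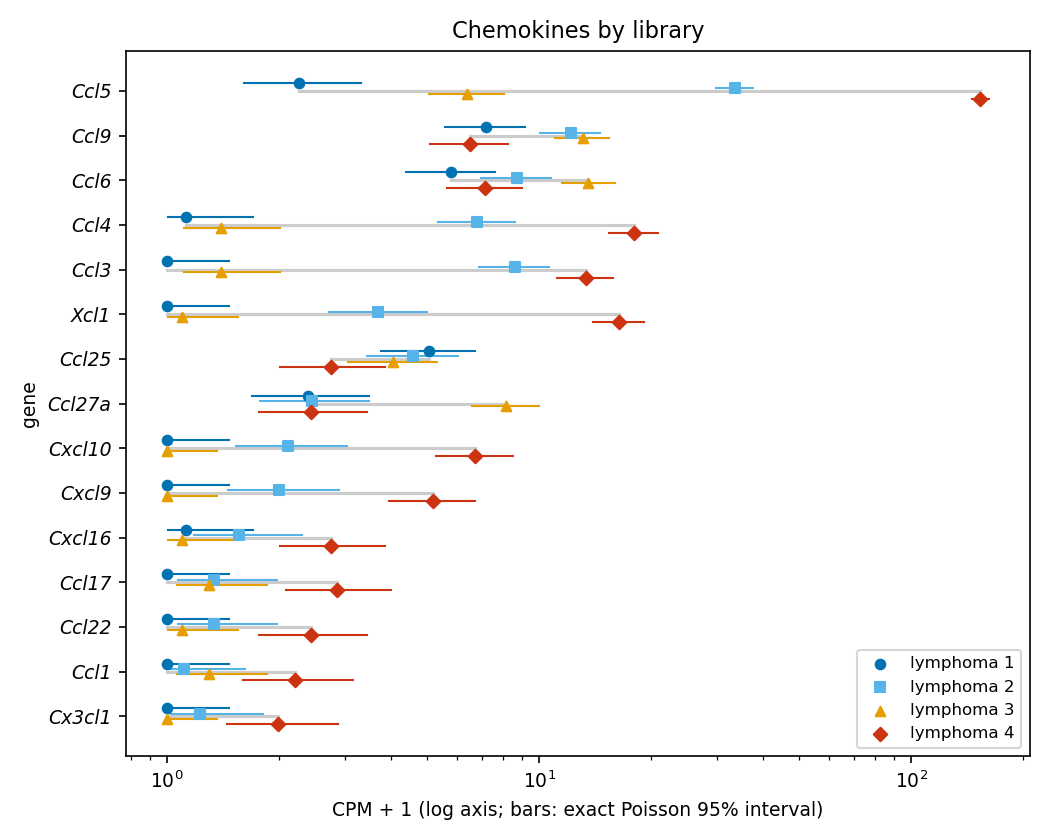
Levels of the 15 ligands that passed the filter (y axis), as CPM + 1 on a log axis, with 1 point for each lymphoma and bars for the exact 95% counting interval. Ccl5, Ccl4, Ccl3 and Xcl1 are highest in lymphoma 4 with lymphoma 2 next, whereas the 4 points of Ccl6 and Ccl9 lie close together and are highest in lymphoma 3.

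Ccl6 and Ccl9, macrophage and neutrophil chemokines of the mouse that act through Ccr1, were the evenest of the ligands that reached 10 CPM. Ccl9 was at 6.19, 11.2, 12.1 and 5.50 CPM and Ccl6 at 4.80, 7.70, 12.6 and 6.16 CPM. Lymphoma 3 was highest in both, 2.2-fold (1.57 to 3.11) above the lowest for Ccl9 and 2.62-fold (1.81 to 3.86) for Ccl6. The macrophage and monocyte markers had medians of 1.39, 2.34, 2.08 and 2.21 in log2(CPM + 1), and 1 of 10 had a large spread. Their receptor Ccr1 differed 172-fold between lymphomas 4 and 1, while the ratio of lymphoma 4 to lymphoma 1 was 1.28 (0.835 to 1.99) for Ccl6 and 0.888 (0.587 to 1.34) for Ccl9. Both of the latter intervals include 1.

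Ccl25 and Ccl27a, epithelial chemokines of gut, thymus and skin, were low. Ccl25 was at 4.04, 3.57, 3.04 and 1.76 CPM, highest in lymphoma 1 but with 32 counts in each of lymphomas 1 and 2. Ccl27a was at 1.39, 1.45, 7.16 and 1.43 CPM, and lymphoma 3 exceeded lymphoma 2 4.94-fold (2.72 to 9.72). Lymphoma 3 was thus highest both in Ccl27a and in Ccr10, its receptor. Ccl27a is uncertain: it has a near-identical copy, Ccl27b, listed at 0, its exons share 8 bases with Il11ra1, and the authors' deposited FPKM table lists it at 5.51, 2.93, 10.03 and 0.640 FPKM, an order in which lymphoma 1 is second.

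The interferon-induced ligands of Cxcr3 were found in lymphomas 2 and 4. Cxcl10 was at 0, 1.12, 0 and 5.72 CPM and Cxcl9 at 0, 1.0, 0 and 4.18 CPM, and Cxcl11 gave 4 counts, all in lymphoma 4. Lymphomas 1 and 3 had 0 counts of all 3 ligands. Cxcr3 itself was above 7 CPM in lymphomas 2 and 4 only. Exons of Cxcl10 overlap those of Art3 by 133 bases, and Cxcl11, Cxcl16, Ccl25 and Cx3cr1 overlap other genes as well. The dendritic cell ligands of Ccr4, Ccl17 at 0, 0.335, 0.294 and 1.87 CPM and Ccl22 at 0, 0.335, 0.0981 and 1.43 CPM, did not share the order of Ccr4: they were highest in lymphoma 4 and had 0 counts in lymphoma 1, where Ccr4 was highest. Cxcl16 was at 0.126, 0.558, 0.0981 and 1.76 CPM, Ccl1 at 0, 0.112, 0.294 and 1.21 CPM and Cx3cl1 at 0, 0.223, 0 and 0.990 CPM, all highest in lymphoma 4 and all below 2 CPM.

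The homeostatic ligands of the main receptors were at or near the limit of detection. Cxcl12, Ccl19, Ccl21a, Ccl21b and Ccl21c had 0 counts in every library, while their receptors Cxcr4 and Ccr7 had counts in all 4. Cxcl13, the ligand of Cxcr5, gave 6 counts, all in lymphoma 4. Ccl21a, Ccl21b and Ccl21c are near-identical copies, and Ccl19 has copies as well, so reads that map to several places may not have been counted. Stromal cells make these ligands, and of the 8 stroma markers 4 (Col3a1, Pdpn, Pdgfra and Madcam1) had 0 counts in every library. Col1a1 and Col1a2 stayed below 1 CPM, Pdgfrb was at 16.2, 11.6, 10.7 and 0.330 CPM, and Cr2, which B cells also carry, was at 1.14, 134, 31.2 and 67.2 CPM. RNA was taken from strained cell suspensions, and the part of straining in these values was not tested. The other ligands at 0 counts in all 4 libraries were Ccl7, Ccl11, Ccl12, Ccl20, Ccl24, Ccl26, Ccl27b, Ccl28, Cxcl1, Cxcl5, Cxcl15 and Cxcl17. All 19 members at 0 counts were listed at 0 in the authors' deposited FPKM table too. Ccl2, Ccl8, Cxcl2, Cxcl3 and Cxcl14 gave between 1 and 13 counts over all libraries and stayed below the filter. A count of 0 allows a level of up to 0.379 CPM in lymphoma 1, the library with the highest limit. Ligands of Ccr6 and Cxcr2 (Ccl20, Cxcl1, Cxcl2, Cxcl3 and Cxcl5) and the Ccr2 ligands Ccl2, Ccl7 and Ccl12 were thus all below the filter or at 0 counts.

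Levels of different genes can be set side by side only per length, for which the authors' deposited FPKM table was used. On that scale Cxcr4 led in lymphoma 1 at 60.9 FPKM, with Ccr4 second at 8.56. Ccl5 led in lymphoma 2 at 80.8 FPKM, with Cxcr4 at 77.5, and in lymphoma 4 at 318 FPKM, with Cxcr4 at 122. In lymphoma 3 Cxcr4 led at 36.6 FPKM and Ccl5 followed at 15.7. Ligands together made up 14.6%, 48.9%, 40.1% and 61.0% of the summed member FPKM in lymphomas 1 to 4, and Ccl5 alone made up 3.0%, 34.1%, 16.8% and 49.6%. Receptors thus made up most of the family's FPKM in lymphoma 1, and ligands in lymphoma 4. The counts did not give this lead. Ccl5 and Cxcr4 held 292 and 2582 counts in lymphoma 2 and 1383 and 4022 in lymphoma 4. Their exonic lengths are 960 and 1808 bases in the annotation used here, and the lengths behind the deposited FPKM are not given. Ligands held 16.7% of the family's counts in lymphoma 4. The reason for the difference between the deposited values was not tested. The highest library was the same in both tables for 34 of the 35 passed members, the exception being Ccr3.

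**Figure D4:**
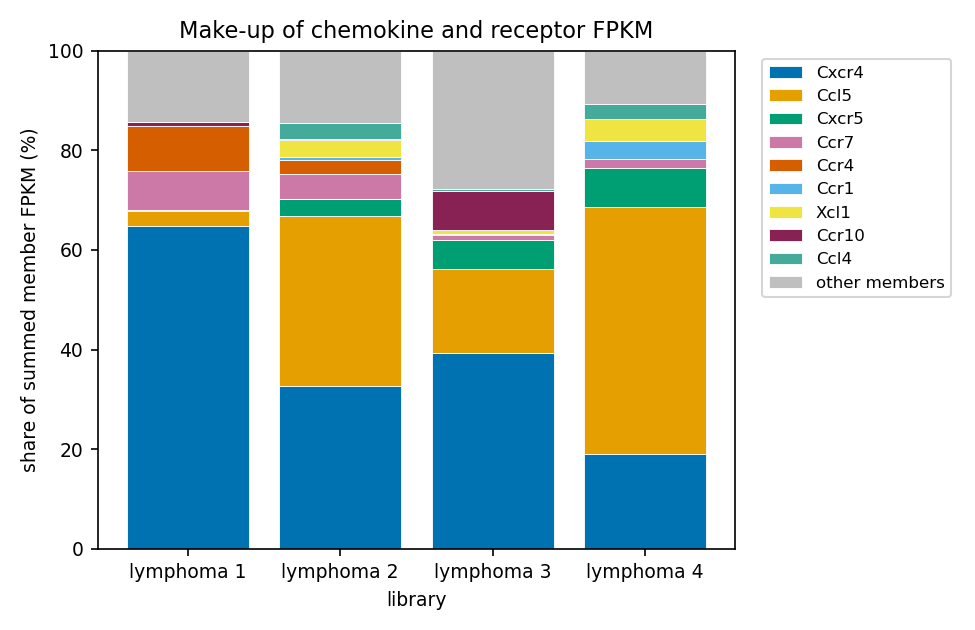
Share of the summed FPKM of all 62 members (y axis, percent, the authors' deposited FPKM) taken by 9 named members and by the rest, for lymphomas 1 to 4 (x axis). Cxcr4 takes 64.7% in lymphoma 1 and 19.1% in lymphoma 4, and Ccl5 takes 3.0% and 49.6%.

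Many members lie side by side in the genome, and the neighbours did not all share a library order. On chromosome 9, between 123678439 and 124113557, lie Ccr9, Cxcr6, Xcr1, Ccr1, Ccr1l1, Ccr3 and Ccr2. Of the 6 with counts, 5 were highest in lymphoma 4 and Ccr2 was highest in lymphoma 2. The ratio of lymphoma 4 to lymphoma 2 was 14.3 (11.4 to 18.1) for Ccr1 and 0.83 (0.708 to 0.969) for Ccr2. On chromosome 11, between 83525778 and 83664683, lie Ccl5, Ccl9, Ccl6, Ccl3 and Ccl4. Ccl5, Ccl3 and Ccl4 were highest in lymphoma 4 and lowest in lymphoma 1, whereas Ccl9 and Ccl6, which lie between Ccl5 and Ccl3, were highest in lymphoma 3. In the sequences printed above, the window of Ccl3 held 1 RUNX match, that of Ccl6 held 2 ETS matches and that of Ccl9 held none.

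Genes that act downstream of the receptors were read from a list. Of 37 measured genes of chemokine signalling (G protein subunits, RGS proteins, arrestins, kinases and cytoskeletal regulators), 19 were highest in lymphoma 4 and 10 in lymphoma 1, and 8 had a large spread. Over all passed genes 34.0% were highest in lymphoma 4, 29.4% in lymphoma 1, and 16.3% had a large spread. Coro1a, an actin regulator of lymphocyte migration, had the highest mean and was at 1948, 1684, 1017 and 1351 CPM. Rgs10, which switches off G protein signals, had the largest SD and was at 207, 152, 2.16 and 20.9 CPM, high in the libraries rich in T cell markers. Of 19 other chemoattractant receptors and homing genes, 14 were highest in lymphoma 4 and 11 lowest in lymphoma 3 (21.3% of all passed genes). Itgb7, the integrin chain of gut homing, was at 134, 236, 16.1 and 609 CPM, and Itga4, its partner, was at 2.65, 142, 129.6 and 442 CPM. Of 15 genes known to induce chemokines, 14 were highest in lymphoma 4. Nfkb1 was at 186, 214, 125 and 403 CPM, and Ltb, a lymphotoxin chain that acts on stroma, was at 9.60, 125, 3.73 and 403 CPM.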

How the data were processed

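Poly(A) RNA of 4 samples of spleen with lymphoma was sequenced, and all carry the same labels, so they form 1 group. The authors deposited whole-number gene counts and a second table, read as FPKM although it names no unit. Per the submitters' processing notes, STAR 2.4.2a, Cufflinks 2.2.1 and the mm10 genome were used. Which annotation and strand setting were used, and any filters, is not given in the sources used here. Of 24969 rows, 26 whose names had become dates (0.191% to 0.201% of counts) were left out, and 5 FPKM columns that match no sample label were not used.

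Counts were scaled to CPM with edgeR 4.0.16 TMM factors (0.838 to 1.17) in R 4.3.3. Genes with 1 CPM or more before TMM scaling in at least 1 library passed the filter. The pseudocount of 1 CPM in spreads understates differences of low genes. Totals of 7773546 to 9602413 counts bound single values by exact Poisson 95% intervals, which cover counting error only. The 8-fold rules for a large spread and for standing apart were tested on simulated data with planted changes. Those data had less spread between libraries than these, and the ratios and their intervals were not tested in this way. The biological coefficient of variation over the 4 libraries was 0.839. No test between conditions exists.

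Every member with 10 CPM or more in a library is named with all 4 values, except 1 that is counted but not reported here by name. Others are named as receptor or ligand partners of these or to account for all members, and of the gene lists set beside members the gene with the highest mean and that with the largest SD on the log2 scale. Pdgfrb, Ms4a1, Icos, Il21, Cd200, Ctla4, Foxp3 and genes named for having 0 or 1 counts were named after their values were seen. Erythroid genes, led by Car2 at 0.758, 6.36, 23.4 and 24.4 CPM, and proliferation genes, with Pcna at 809, 597, 577 and 138 CPM and Birc5 at 153, 97.9, 222 and 5.61 CPM, were set beside no member. The members and lists were chosen with earlier results of these data known. Alternatives were DESeq2 1.42.0 size factors, other filters, another pseudocount, a 4-fold rule, values from the FPKM table and leaving out libraries in turn. Gene positions are from GENCODE M21 (GRCm38).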

Additional observations from a re-analysis of the deposited data

Results flagged for a closer look

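Among the 35 passed members, 2 had a library far from the other 3 when the gap to the nearest library was divided by the whole range of log2(CPM + 1); chance gives about 1 in 20 per gene. Ccl27a was highest in lymphoma 3, at a log2(CPM + 1) of 3.03, with the other 3 libraries between 1.39 and 1.45 CPM. Ccr7 was lowest in lymphoma 3, at a log2(CPM + 1) of 2.21, with the other 3 libraries between 34.6 and 50.4 CPM. Both concern lymphoma 3, but 2 of 35 is near the rate of 1 in 20, so they are not read as a result about the members. The share of all genes that meet this rule was not counted. With 4 libraries this rule asks that the other 3 lie close together, so Ackr2 and Ccr1, which stood further from the rest in fold, did not meet it.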

How the results depend on the processing

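With DESeq2 size factors the 35 passed members gave the same counts of large spread and of highest library, and 4 stood apart, Ccr7 below in lymphoma 3 being added. That scaling shifted all genes of a library by 0.07, -0.06, -0.07 and 0.06 in log2 for lymphomas 1 to 4. The median ratio of lymphoma 2 to lymphoma 1 was 0.608 with DESeq2 size factors and 0.755 on FPKM. With no filter, 6 members were highest in lymphoma 2. At a mean of 5 CPM or more, 1 was highest in lymphoma 1, 3 in lymphoma 3 and 13 in lymphoma 4. A pseudocount of 0.25 CPM gave 24 members with a large spread and 5 standing apart, against 26.4% and 4.50% of all genes. A 4-fold rule gave 23 and 8, against 35.7% and 9.72%. Without members whose exons overlap another gene, an alternative chosen after seeing the data, 1 was highest in lymphoma 1 and 3 in lymphoma 3. Leaving out each library in turn gave 6 to 15 members with a large spread, 2 to 12 standing apart, 28 to 35 detected, and 5 to 20 highest in lymphoma 2. It gave 2 to 3 highest in lymphoma 1, 5 in lymphoma 3 in each case and 25 to 28 in lymphoma 4. Where lymphoma 4 was left out, 7 fewer members passed, and for the other changes the cause was not tested. With DESeq2 size factors 20 of 20 levels of single members moved by less than the SD over libraries. As that scaling shifted values by 0.07 or less in log2, this could hardly have come out otherwise. Over the alternatives that kept all libraries, 36 of 48 list medians moved by less than their SD. Of the medians that moved more, 9 came from FPKM values, which were set against an SD of CPM values, an unlike unit. Means over libraries rest on lymphoma 4 for many members: without it Ccl5 fell from a mean of 47.8 to 13.1 CPM, and 12 of 20 members moved by over 1.5 times. The same share over all genes was not counted. No paired analysis was possible because all samples carry the labels of 1 group. Depth limits members below about 0.379 CPM, where 0 counts cannot be told from a low level.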

Other observations

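Counts and FPKM of a few members differ by more than scale. For Ackr4, lymphomas 1 and 2 hold 11 and 7 counts and are listed at 0 in the authors' deposited FPKM table. For Ccl3, lymphoma 1 holds 0 counts and is listed at 0.0824 FPKM. For Ccr3, the counts are 10 in lymphoma 2 and 11 in lymphoma 4, and the FPKM values are 0.169 and 0.156.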
